A study of Homo sapiens with 6 samples.

Results

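Desmosomes are spot-like junctions that hold neighbouring epithelial cells together, and 10 genes that encode their cadherins and cytoplasmic plaque proteins were examined: DSC2, DSC3, DSG2, DSG3, DSP, PKP1, PKP2, PKP3, PKP4 and JUP. They are 10 of the 56638 gene symbols in the count tables, taken by symbol, and the set was put together with the measured difference between the groups already known. Their fold changes and calls between the groups are therefore given as a description and not as support for anything. In all, 8 of the 10 had enough reads to enter the fit of 16369 genes, and DSG3 and PKP1 did not.

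HCT116 is a cell line established from a human colorectal carcinoma, and it was grown in RPMI-1640 medium with fetal bovine serum and taken at the same passage range in both groups. Of the 6 libraries, 3 are labelled ZFP90 knockout, with guide RNAs directed at the third exon of ZFP90, and 3 are labelled control. The labels do not state whether the knockout cells were a clone or a pool, or whether the control cells received Cas9 or a guide. They also do not say that the replicates came from separate cultures, so p-values reflect the spread from library to library alone, part or all of which could be technical.

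In a desmosome, the desmocollins (DSC genes) and desmogleins (DSG genes) cross the membrane and bind those of the next cell. Inside the cell, plakoglobin (JUP) and the plakophilins (PKP genes) bind the cadherin tails, and desmoplakin (DSP) links this plaque to keratin filaments. Simple epithelia such as that of the colon rely chiefly on DSC2, DSG2 and PKP2, whereas DSC3, DSG3 and PKP1 are best known from stratified epithelia such as the epidermis.

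DSC3 was the member whose level separated the groups most. It had 31, 22 and 31 reads in knockout replicates 1 to 3, against 458, 390 and 385 reads in control replicates 1 to 3. The other abundant members differed far less: DSP and JUP were higher in the libraries labelled knockout, and DSC2, DSG2 and PKP3 overlapped between the groups. Among the 8 tested members, 2 were called higher and 1 lower at an edgeR adjusted p under 0.05. Of all tested genes, 21.1% were called in either direction, 9.73% higher and 11.4% lower. The median log2 fold change of the 8 tested members was 0.08, and that of all tested genes was 0.01. In 5 of the 8, the 3 libraries of one group all lay above or all below the other 3, as in 41.2% of all tested genes. Since the set was selected on this comparison, nothing is read from these shares.

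DSC3 lies beside DSC2, and both are read from the minus strand of chromosome 18. DSP lies on chromosome 6 and JUP on chromosome 17. The 250 bases before the transcription start of the members whose RNA differed, and of DSC2, the neighbour of DSC3 whose groups overlapped, are printed from the RefSeq promoter table (GRCh38.p14) to show what the windows share. Capitals mark matches, on either strand, to 6 motifs. CAGGTG or CACCTG is an E-box bound by ZEB and SNAI factors. AACCGG or CCGGTT is a partial site, and not the full site, of Grainyhead-like (GRHL) factors. CCAAT or ATTGG is the CCAAT box, TGANTCA the AP-1 site and GGAATG or CATTCC the TEAD site. CTTTGA or TCAAAG is the core of the TCF and LEF site. DSC3 is at chr18:31042743-31042992, DSC2 at chr18:31102422-31102671 and JUP at chr17:41786712-41786961, all on the minus strand, and DSP is at chr6:7541421-7541670 on the plus strand.
DSC3: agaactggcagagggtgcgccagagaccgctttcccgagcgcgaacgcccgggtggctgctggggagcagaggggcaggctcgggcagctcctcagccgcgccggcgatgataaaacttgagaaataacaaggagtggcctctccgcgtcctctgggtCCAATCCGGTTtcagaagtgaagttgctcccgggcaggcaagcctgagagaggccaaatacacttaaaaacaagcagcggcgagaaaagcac
DSC2: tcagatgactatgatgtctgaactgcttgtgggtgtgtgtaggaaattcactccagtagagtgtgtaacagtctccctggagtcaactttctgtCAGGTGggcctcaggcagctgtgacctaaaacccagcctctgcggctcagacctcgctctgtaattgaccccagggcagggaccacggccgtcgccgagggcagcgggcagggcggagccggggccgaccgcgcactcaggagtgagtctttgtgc
DSP: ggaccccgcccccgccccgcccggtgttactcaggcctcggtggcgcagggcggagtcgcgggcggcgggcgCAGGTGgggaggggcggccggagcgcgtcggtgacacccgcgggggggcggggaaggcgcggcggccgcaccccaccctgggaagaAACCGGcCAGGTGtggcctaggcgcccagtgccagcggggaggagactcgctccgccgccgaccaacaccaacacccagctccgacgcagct
JUP: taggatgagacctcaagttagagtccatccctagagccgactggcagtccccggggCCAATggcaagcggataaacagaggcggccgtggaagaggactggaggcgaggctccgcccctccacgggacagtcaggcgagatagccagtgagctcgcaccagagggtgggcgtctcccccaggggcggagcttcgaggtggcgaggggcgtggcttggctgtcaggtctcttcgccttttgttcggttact

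The DSC3 window holds a CCAAT box that starts at position -92, counted back from the transcription start. A GRHL partial site follows it directly at -87. The DSP window holds a GRHL partial site as well, at -92, next to an E-box at -85, with a further E-box at -178. In the DSC2 window the only match is an E-box at -156, and in the JUP window it is a CCAAT box at -194. The table also gives a second start for DSC2 and for JUP, whose windows are not printed. The table holds 11 windows of 8 of the 10 members. An E-box was matched in 4 of these windows, that of JUP only in its second window. A CCAAT box was matched in 3 and a GRHL partial site in 2, while AP-1, TEAD and TCF/LEF sites were matched in 0. Of all 34941 RefSeq promoter windows of the same length, 17.5% hold the E-box, 32.0% the CCAAT box and 5.98% the GRHL partial site. The AP-1 site is in 6.59%, the TEAD site in 11.9% and the TCF/LEF core in 11.2%. The DSC3 window has 18 CpG dinucleotides, the DSC2 window 12, the DSP window 33 and the JUP window 17, and the median of all promoters is 11. Matches are letters in a window and say nothing about the binding of a factor in these cells.

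The libraries held between 14450905 and 17012910 reads in genes in the group labelled knockout and between 13424356 and 16215490 in the control group. A count of 3 reads then corresponds to between 0.181 and 0.224 CPM (counts scaled to a common library size), a limit that covers counting error only. ZFP90 itself had 86.9, 80.5 and 89.8 CPM in the libraries labelled knockout, against 47.5, 47.4 and 43.1 CPM in controls, a log2 fold change of 0.90 (SE 0.07). The RNA of the targeted gene thus does not check the knockout label, and a change inside an exon need not lower the read count of a gene. Control replicate 2 stood apart along the genome, with 87.6% of the level of the other controls on chromosome 6, 80.5% on chromosome 7, 75.1% on chromosome 8, 70.3% on chromosome 9 and 53.5% on the X chromosome. Scaling set the split of all calls: 46.1% were higher with trimmed mean scaling (TMM), and 29.6% were higher when libraries were scaled by their size alone.

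Among the desmocollins, DSC3 averaged 1.82 ± 0.239 CPM in the libraries labelled knockout and 27.6 ± 1.66 CPM in controls (SD, n = 3 each). Its log2 fold change was -3.91 (SE 0.12, 95% interval -4.18 to -3.63), a level 15.01-fold lower in the libraries labelled knockout. With any 1 library left out the log2 fold change lay between -3.99 and -3.82, and DSC3 was called each time. All 3 libraries labelled knockout still had more reads than the 3-read limit, so DSC3 was low there and not absent. In these bulk libraries, fewer cells with DSC3 RNA and less DSC3 RNA per cell cannot be told apart.

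DSC2, the desmocollin of simple epithelia, had 69.9, 64.3 and 80.9 CPM in the libraries labelled knockout, against 79.5, 75.3 and 72.1 CPM in controls. The groups overlap: knockout replicate 3 was the highest of all 6 and knockout replicate 2 the lowest. The log2 fold change was -0.08, with a 95% interval from -0.27 to 0.12.

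Set against DSC2, DSC3 took a much smaller part of the desmocollin RNA in the libraries labelled knockout. Per base of exon, DSC3 made up 4.53%, 4.12% and 4.25% of DSC2 and DSC3 together in the libraries labelled knockout, and 38.6%, 37.6% and 41.4% in controls. As a plain share of reads, the values averaged 2.48% ± 0.122 in the libraries labelled knockout and 26.7% ± 1.59 in controls (SD, n = 3 each). The size of the share rests on the gene length used, because the exons of DSC2 add up to 12495 bases of which 2736 are coding, against 7056 and 2712 for DSC3. Per coding base, the mean share was 2.50% in the libraries labelled knockout and 26.9% in controls, so the order of the groups was the same on each scale.

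**Figure D1:**
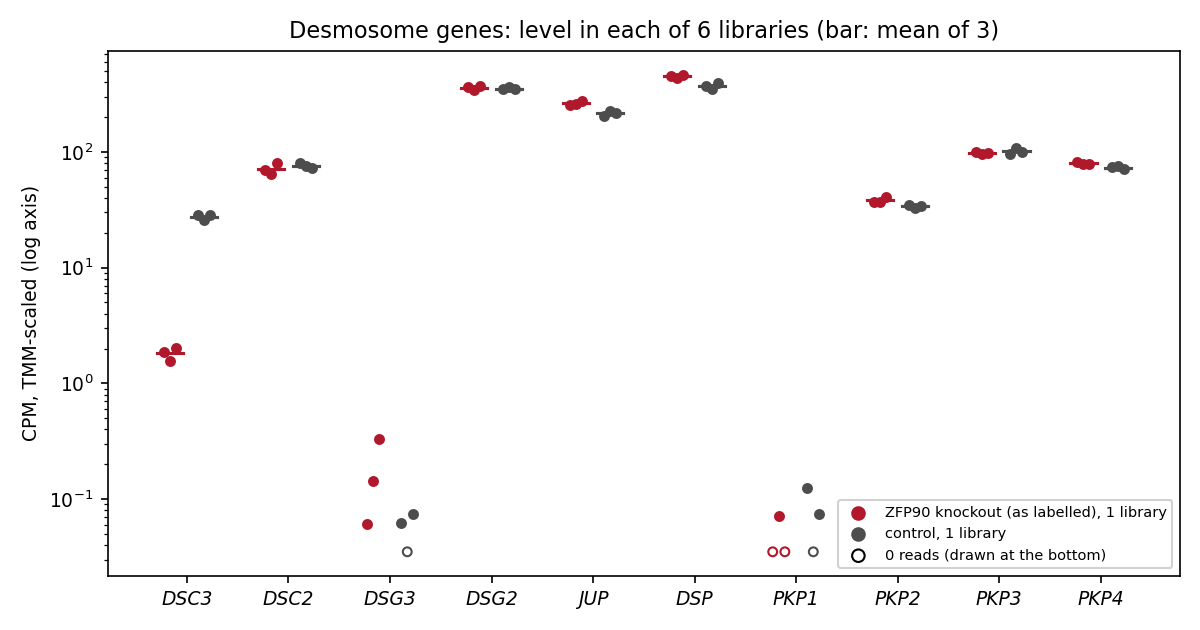
TMM-scaled CPM (log axis) of each of the 10 desmosome genes in the 3 libraries labelled ZFP90 knockout (red, left of each pair) and the 3 control libraries (grey, right). Points are single libraries, bars are means of 3, and open circles are libraries with 0 reads. DSC3 sits between 1.56 and 2.03 CPM in the libraries labelled knockout and between 25.7 and 28.7 CPM in controls, whereas the other abundant genes lie close together.

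Among the desmogleins, DSG2, the one made in simple epithelia, was the most abundant desmosomal cadherin. It had 363, 342 and 373 CPM in the libraries labelled knockout, against 347, 362 and 348 CPM in controls. These values overlap, and the log2 fold change was 0.03 with a 95% interval from -0.08 to 0.14. With libraries scaled by size alone its sign turned, at -0.04.

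The cadherins of stratified epithelia other than DSC3 were near the limit of detection in both groups. DSG3, the desmoglein of the lower epidermis, had 1, 2 and 5 reads in the libraries labelled knockout and 1, 0 and 1 reads in controls. Over the 3 libraries of a group, DSC1 had 8 reads in the group labelled knockout and 4 in the control group, DSG1 had 6 and 4, and DSG4 had 12 and 3. None of these had enough reads to be tested. In the control libraries, DSC3 was thus the desmosomal cadherin of stratified epithelia with reads well above that limit.

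The 7 desmosomal cadherin genes lie in 1 cluster on chromosome 18, which in GENCODE release 29 (GRCh38, used to place genes only) runs over 559 kb in the order DSC3, DSC2, DSC1, DSG1, DSG4, DSG3 and DSG2. DSC3 is at one end of the cluster and DSG2 at the other, and the start of DSG2 lies 455 kb from that of DSC3. DSC2, the gene next to DSC3, and DSG2 overlapped between the groups, as given above. Of the tested genes whose symbol is also in GENCODE 29, the 5 nearest on each side were read as well. Tested genes under other symbols were not placed. On the side of DSG2, B4GALT6, a galactosyltransferase gene, fell, with a log2 fold change of -0.35 (SE 0.10, edgeR adjusted p = 0.0351). This call held without control replicate 2 and was lost without any other library, with adjusted p between 0.0512 and 0.111. TRAPPC8, RNF125, RNF138 and HNRNPA1P7, further out, had -0.03, -0.07, -0.31 and -0.38 and were not called. On the side of DSC3 the nearest genes placed this way are KCTD1 and CIAPIN1P, whose starts lie at -4385 kb and -4443 kb from that of DSC3. KCTD1 fell, at -0.35, and SS18 fell, at -0.23; leaving out knockout replicate 3 or control replicate 1 lost both calls, knockout replicate 2 that of KCTD1 and knockout replicate 1 that of SS18, with edgeR adjusted p between 0.0540 and 0.0968. CIAPIN1P, TAF4B and DHFRP1 had 0.37, -0.10 and 0.23 and were not called. Control replicate 2 was at 104% of the other controls on chromosome 18.

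**Figure D2:**
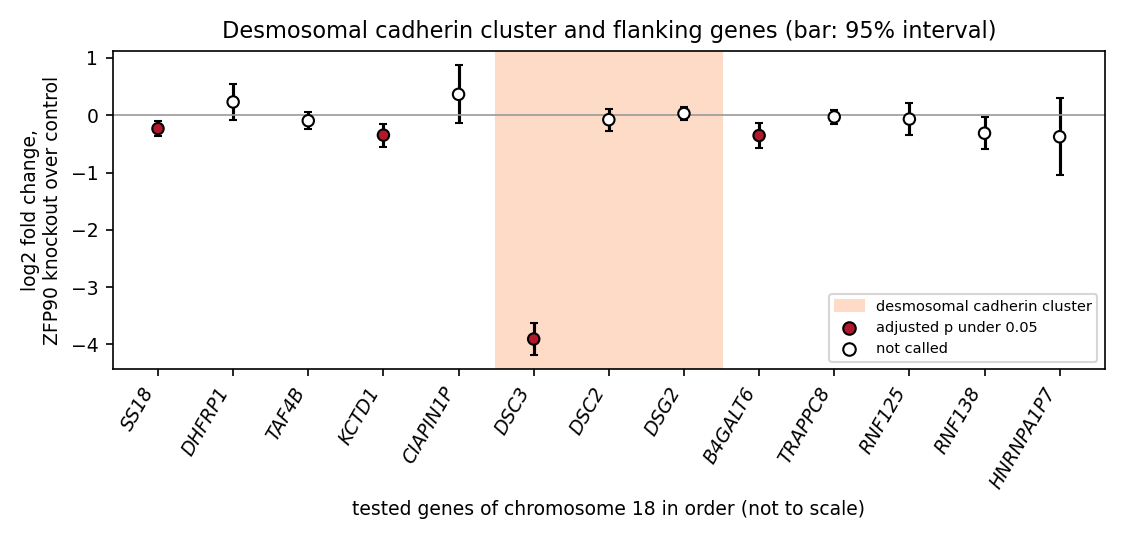
Log2 fold change (libraries labelled ZFP90 knockout over control, with 95% interval) of the tested genes in and around the desmosomal cadherin cluster, in their order along chromosome 18. DSC3 is at -3.91, its neighbour DSC2 is at -0.08 and DSG2, at the other end of the cluster, is at 0.03.

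Among the plaque genes, desmoplakin RNA rose. DSP had 457, 434 and 466 CPM in the libraries labelled knockout, against 371, 347 and 392 CPM in controls. All 3 libraries labelled knockout lie above all 3 controls, with a log2 fold change of 0.29 (SE 0.06, 95% interval 0.16 to 0.42). DSP is on chromosome 6, where control replicate 2 was at 87.6%, and this replicate had the lowest DSP value. Without it the log2 fold change was 0.25, and the call held with any 1 library left out.

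Plakoglobin RNA rose by nearly the same amount. JUP had 255, 257 and 278 CPM in the libraries labelled knockout, against 205, 226 and 217 CPM in controls, again with no overlap. Its log2 fold change was 0.29 (SE 0.06, 95% interval 0.16 to 0.41), and between 0.24 and 0.32 with any 1 library left out, called each time. With libraries scaled by size alone the log2 fold change was 0.22 and the call was lost (edgeR adjusted p = 0.0594).

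The plakophilins, which bind cadherin tails and draw in desmoplakin, showed no call. PKP2, the plakophilin of simple epithelia and heart muscle, had 37.1, 36.9 and 40.6 CPM in the libraries labelled knockout and 34.5, 32.8 and 34.2 CPM in controls. PKP4, which also occurs at adherens junctions, had 82.5, 78.7 and 79.4 CPM in the libraries labelled knockout and 74.6, 75.0 and 70.5 CPM in controls. For both genes the groups did not overlap, yet neither was called: the log2 fold changes were 0.17 for PKP2 (95% interval 0.02 to 0.33) and 0.13 for PKP4 (0.01 to 0.25). PKP3, the plakophilin found in the desmosomes of most epithelia, had 99.4, 96.1 and 96.9 CPM in the libraries labelled knockout and 96.6, 107 and 98.9 CPM in controls, which overlap. Its log2 fold change was -0.05, with a 95% interval from -0.18 to 0.08. PKP1, the plakophilin of the epidermis, had 0, 1 and 0 reads in the libraries labelled knockout and 2, 0 and 1 reads in controls.

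**Figure D3:**
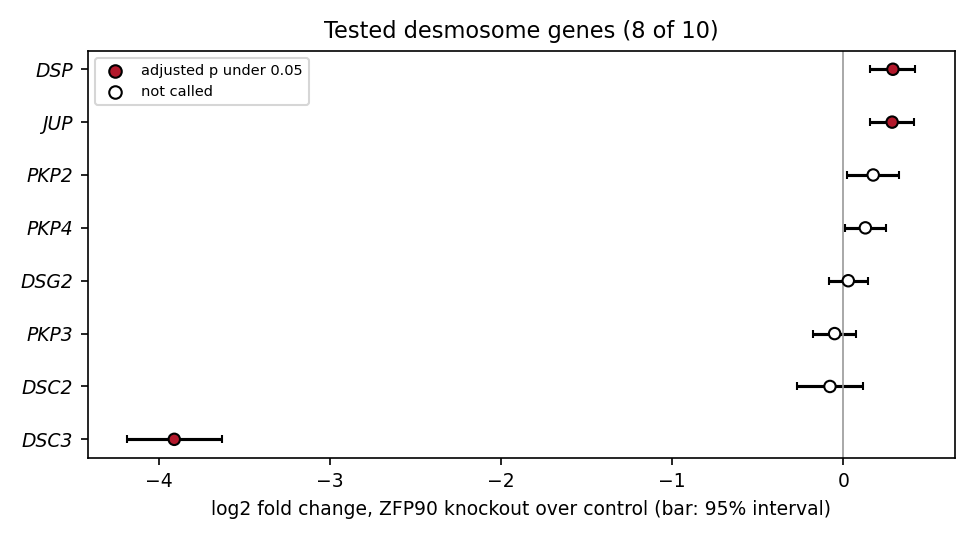
Log2 fold change (libraries labelled ZFP90 knockout over control) of the 8 tested desmosome genes, with 95% intervals from the edgeR fit. DSC3 at -3.91 stands far from the other 7, which lie between -0.08 and 0.29.

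Compared per length, the members fell into the same broad order in both groups. Reads divided by exon length and library size (RPKM) averaged, in the libraries labelled knockout, 58.1 for DSG2, 53.3 for JUP, 44.8 for DSP, 25.7 for PKP3, 8.42 for PKP4, 5.74 for DSC2, 5.42 for PKP2 and 0.258 for DSC3. In controls the RPKM averages were 56.9 for DSG2, 43.7 for JUP, 36.7 for DSP, 26.7 for PKP3, 7.70 for PKP4, 6.05 for DSC2, 4.81 for PKP2 and 3.91 for DSC3. In the libraries labelled knockout, the ranges of DSG2 and JUP overlap, as do those of DSC2 and PKP2, while no neighbours overlap in controls. Within each library labelled knockout DSG2 was above JUP, with 58.7 against 51.5, 55.3 against 52.1 and 60.2 against 56.2 RPKM. DSC2 was above PKP2 in knockout replicates 1 and 3 and below it in replicate 2 (5.14 against 5.24 RPKM). Per coding base, JUP came before DSG2 in the libraries labelled knockout (118 against 107) and after it in controls (96.7 against 105), and DSC2 came before PKP4 in both groups. DSC3 was the lowest of the 8 in both groups on both scales, and in controls it was close to PKP2.

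Ratios between members within a library show the make-up without between-library scaling. There were 1.26, 1.27 and 1.25 DSP reads per DSG2 read in the libraries labelled knockout, against 1.07, 0.958 and 1.13 in controls, where the lowest is replicate 2. For JUP over DSG2 the ratios were 0.701, 0.752 and 0.746 in the libraries labelled knockout and 0.590, 0.624 and 0.625 in controls. Relative to DSG2, the RNA of both plaque genes was thus higher in every library labelled knockout than in any control. JUP over DSP was 0.557, 0.592 and 0.597 in the libraries labelled knockout and 0.552, 0.652 and 0.554 in controls, which overlap. PKP3 over PKP2 was 2.68, 2.61 and 2.39 in the libraries labelled knockout and 2.80, 3.27 and 2.89 in controls, lower in every library labelled knockout.

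Summed over members, the 4 desmosomal cadherins reached 435, 408 and 456 CPM in the libraries labelled knockout, against 455, 463 and 449 CPM in controls, which overlap. The 6 plaque genes summed to 930, 904 and 961 CPM in the libraries labelled knockout, against 781, 788 and 813 CPM in controls, which do not overlap. DSP and JUP supply most of the plaque sum. DSG2 supplies most of the cadherin sum.

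**Figure D4:**
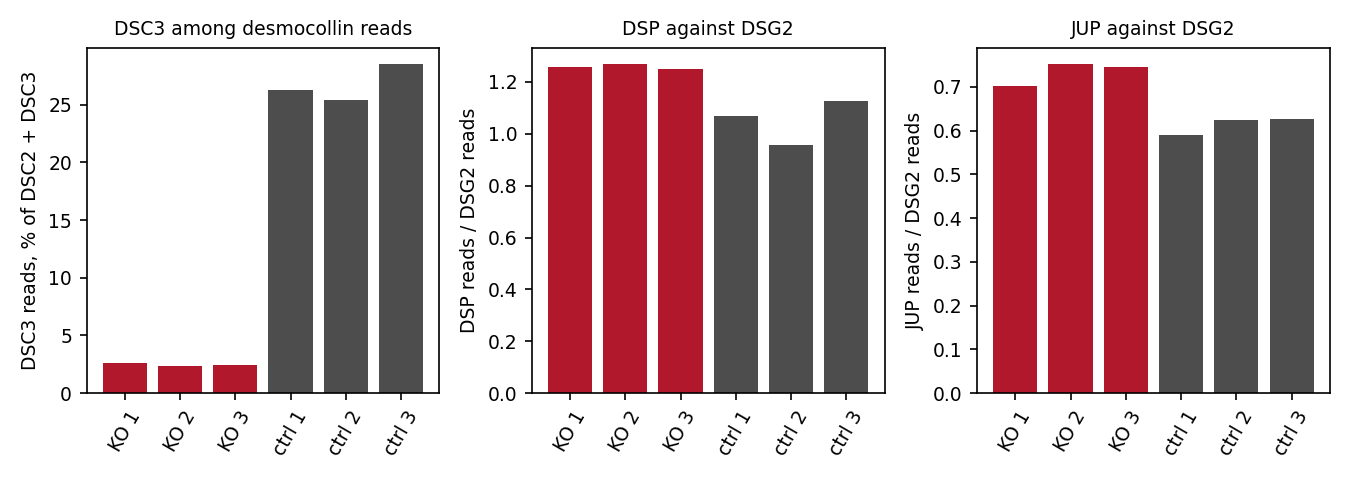
DSC3 reads as a percentage of DSC2 and DSC3 reads together (left), DSP reads per DSG2 read (middle) and JUP reads per DSG2 read (right), with 1 bar for each library (red, labelled ZFP90 knockout; grey, control). The DSC3 share of reads is 2.37% to 2.61% in the libraries labelled knockout and 25.4% to 28.5% in controls, and DSP over DSG2 is 1.25 to 1.27 in the libraries labelled knockout and 0.958 to 1.13 in controls.

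Other genes of the desmosome and its surroundings were read from 5 lists. Of their 63 tested genes, 21 were called higher and 11 lower, while of all tested genes 21.1% were called, 9.73% higher and 11.4% lower. The lists were chosen with earlier results of these data known, so nothing is read from the difference. Among plakins and desmosome-associated proteins, 3 of 10 tested were higher and 1 lower, against 9.73% higher and 11.4% lower of all tested genes. Leaving out 1 library gave between 2 and 5 higher and between 1 and 3 lower, the 5 and 3 without control replicate 2. Without that replicate 2261 of all 16693 tested genes were higher and 2361 lower. With all 6 libraries the median log2 fold change of the list was 0.25, against 0.01 for all tested genes. Periplakin (PPL), a plakin that joins keratin filaments to desmosomes and the cornified envelope, fell: it averaged 118 ± 5.31 CPM in the libraries labelled knockout and 193 ± 2.28 CPM in controls (SD, n = 3 each), a log2 fold change of -0.71 (SE 0.05, edgeR adjusted p = 4.02e-05). Envoplakin (EVPL), which pairs with periplakin, rose, with 145 ± 4.80 CPM in the libraries labelled knockout and 109 ± 6.32 CPM in controls (log2 fold change 0.41, SE 0.06, edgeR adjusted p = 0.00158). There were 1.23 EVPL reads per PPL read in the libraries labelled knockout and 0.565 in controls. Epiplakin (EPPK1), a keratin-binding plakin, rose by 0.74 on the log2 scale, and lies on chromosome 8, where control replicate 2 was at 75.1%; without that replicate the value was 0.57. TMEM43, a membrane protein, rose by 0.21, but the call was lost without knockout replicate 1 (edgeR adjusted p = 0.0563) and without control replicate 1 (0.0503).

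Keratins form the filaments to which desmoplakin attaches, and 5 of 10 tested were higher and 2 lower (median log2 fold change 0.36), against 9.73% and 11.4% of all tested genes. KRT13, a keratin of stratified epithelia that do not cornify, averaged 14.2 CPM in the libraries labelled knockout and 1.20 CPM in controls, a log2 fold change of 3.58. KRT20, a marker of differentiated intestinal cells, averaged 7.35 CPM in the libraries labelled knockout and 1.33 CPM in controls (log2 fold change 2.47). KRT16 had a log2 fold change of 1.61, with the limit that it shares sequence with near-identical copies. KRT15, a basal keratin, fell, at -0.61. Of the main keratins of simple epithelia, KRT8 averaged 1394 CPM in the libraries labelled knockout and 1318 CPM in controls and was not called. KRT19 averaged 541 CPM in the libraries labelled knockout and 591 CPM in controls and was not called. KRT18 fell, with 178 CPM in the libraries labelled knockout and 210 CPM in controls, but its edgeR adjusted p was 0.122 without knockout replicate 2, 0.132 without knockout replicate 3 and 0.0801 without control replicate 3.

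Adherens junctions lie next to desmosomes and use classical cadherins, catenins and nectins. Of 15 tested genes, 5 were higher and 2 lower, with a median log2 fold change of -0.04, while 9.73% of all tested genes were higher and 11.4% lower. The counts were 2 and 1 without either knockout replicate 1 or knockout replicate 3, 3 and 1 without knockout replicate 2 or control replicate 1, and 3 and 2 without control replicate 3. Those runs also called fewer of all tested genes, between 756 and 1174 higher and between 1025 and 1410 lower. E-cadherin (CDH1) averaged 279 CPM in the libraries labelled knockout and 275 CPM in controls, with a log2 fold change of 0.02 that was not called. P-cadherin (CDH3) had -0.14 and was not called. LIMA1, an actin-binding protein linked to alpha-catenin, fell, with 113 CPM in the libraries labelled knockout and 226 CPM in controls (log2 fold change -1.002, SE 0.05, edgeR adjusted p = 8.5e-06). NECTIN3 (listed as PVRL3), a nectin that binds other nectins between cells, rose, with 135 ± 14.8 CPM in the libraries labelled knockout and 70.4 ± 1.84 CPM in controls (SD, n = 3 each), a log2 fold change of 0.94. NECTIN1 (listed as PVRL1) rose by 0.42. NECTIN4 (listed as PVRL4) rose by 0.52, with its call lost without knockout replicate 1, knockout replicate 3 or control replicate 3, at edgeR adjusted p values of 0.0623, 0.0709 and 0.0570.

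Beta-catenin (CTNNB1), the close relative of plakoglobin, averaged 286 CPM in the libraries labelled knockout and 251 CPM in controls, a log2 fold change of 0.19 called at an edgeR adjusted p of 0.0309. Leaving out any library other than control replicate 2 lost this call, with adjusted p between 0.0593 and 0.120. The catenin CTNND1 averaged 409 CPM in the libraries labelled knockout and 476 CPM in controls, with a log2 fold change of -0.22. Its call was lost without knockout replicate 1, 2 or 3 or control replicate 1, with edgeR adjusted p between 0.0587 and 0.0912.

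**Figure D5:**
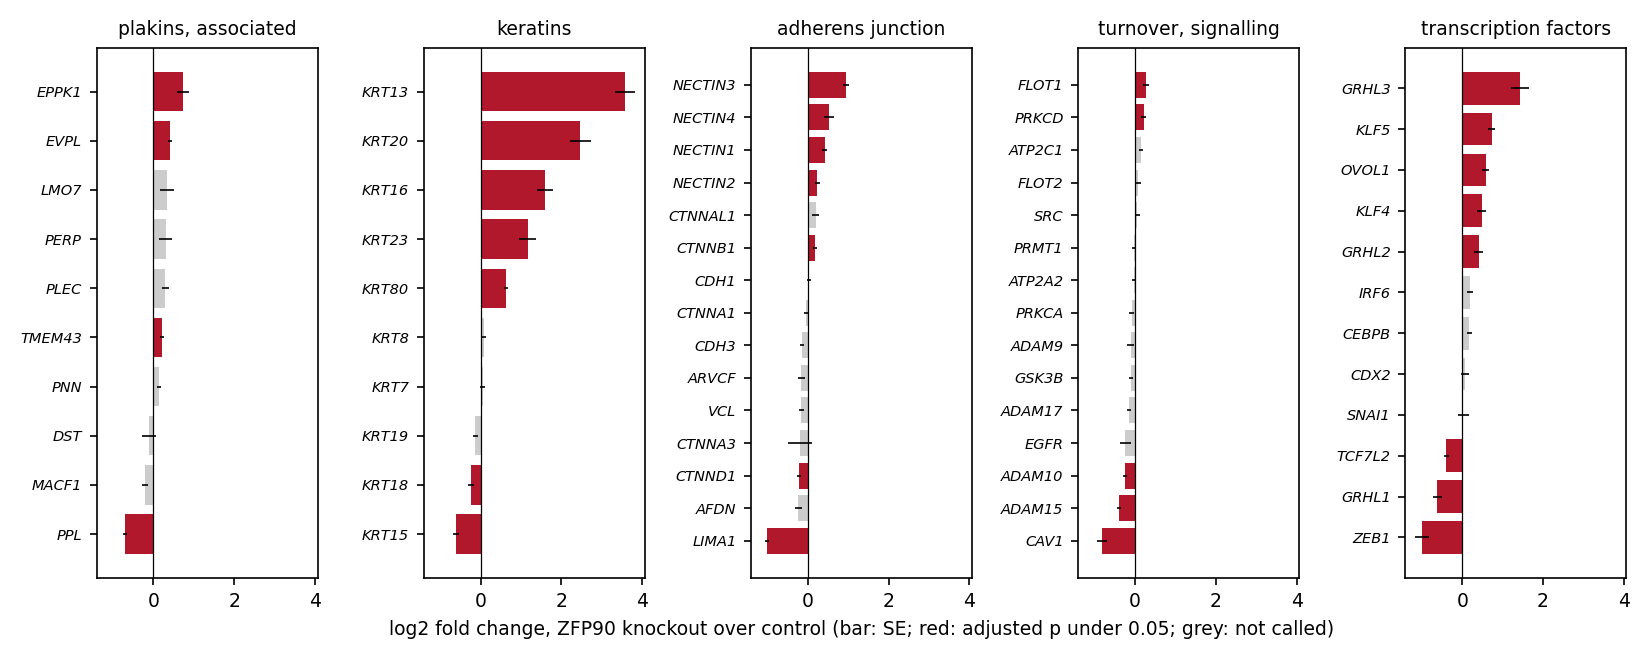
Log2 fold change (libraries labelled ZFP90 knockout over control) of tested genes from 5 lists around the desmosome, with bars for the standard error; red genes were called at an adjusted p under 0.05 and grey genes were not. PPL and LIMA1 lie below 0 at -0.71 and -1.002, EVPL and NECTIN3 above 0 at 0.41 and 0.94, and CDH1 is at 0.02.

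Among genes of desmosome turnover and signalling, 2 of 15 tested were higher and 3 lower, with a median log2 fold change of -0.08. Of all tested genes, 9.73% were higher and 11.4% lower, and nothing is read from the difference. Caveolin-1 (CAV1), a coat protein of membrane pits, fell, with 150 CPM in the libraries labelled knockout and 266 CPM in controls (log2 fold change -0.82); it lies on chromosome 7, where control replicate 2 was at 80.5%, and without that replicate the value was -0.94. The membrane proteases ADAM15 and ADAM10 fell too, at -0.39 and -0.25 on the log2 scale. The 2 higher genes, FLOT1 at 0.27 and PRKCD at 0.21, both lost their calls without knockout replicate 1 (edgeR adjusted p 0.161 and 0.151), knockout replicate 3 (0.161 and 0.120) or control replicate 1 (0.140 and 0.123), and PRKCD also without control replicate 3 (0.0617). Without control replicate 2, 6 genes of this list were lower. That run called 2361 of all 16693 tested genes lower, against 1861 of 16369 with all 6 libraries.

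Of 13 tested transcription factors of epithelial identity, 6 were higher and 3 lower, with a median log2 fold change of 0.20, against 9.73% higher and 11.4% lower of all tested genes. GRHL3, a factor of epidermal differentiation, rose, with 4.18 CPM in the libraries labelled knockout and 1.55 CPM in controls (log2 fold change 1.43). KLF5, a factor of the intestinal crypt, averaged 307 CPM in the libraries labelled knockout and 185 CPM in controls (0.73), and OVOL1 rose by 0.58. ZEB1, a repressor of epithelial genes that binds the E-box named above, fell, with 2.68 CPM in the libraries labelled knockout and 5.34 CPM in controls (log2 fold change -0.996). GRHL1, another Grainyhead-like factor, fell, at -0.62, and TCF7L2, the main TCF of the intestine, fell, at -0.40. GRHL2 had 0.40, with its call lost without any of the 3 knockout replicates or control replicate 3, at edgeR adjusted p between 0.0503 and 0.131. The gene lies on chromosome 8, where control replicate 2 was at 75.1%. That replicate had 26.9 CPM of GRHL2, against 36.9 and 35.5 CPM in control replicates 1 and 3. With any 1 library left out the log2 fold change of GRHL2 lay between 0.28 and 0.49. TP63, the master regulator of stratified epithelia, had 4 reads in the group labelled knockout and 3 in the control group and was not tested.

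Markers of colonic epithelium and of cell types other than the cell line were summed in each library. Markers of stratified epithelium summed to between 141 and 159 CPM in the libraries labelled knockout and between 118 and 125 CPM in controls. Of 15 listed, 7 were tested, with 3 higher and 1 lower, against 9.73% higher and 11.4% lower of all tested genes. COL17A1, KRT10 and SERPINB5 were higher (log2 fold changes 1.21, 0.63 and 0.48) and KRT15 was lower. TRIM29, S100A2 and FAT2 were not called. KRT5, KRT14, IVL, SPRR1A, SPRR1B and TP63 had too few reads to be tested. KRT5 and KRT14 had 4 and 29 reads in the group labelled knockout and 0 and 10 in the control group. KRT1 and LOR were at 0 reads. Markers of colonic epithelium summed to between 2692 and 2817 CPM in the libraries labelled knockout and between 2715 and 2848 CPM in controls, with KRT20 higher, KRT18 lower (both given above) and CDX1 at 0 reads. KRT8 and KRT19 supply most of this sum. VIL1, LGALS4 and GPA33 had 4, 4 and 15 reads in the group labelled knockout and 4, 8 and 10 in the control group. Fibroblast and endothelial markers ran from 76.0 to 97.6 CPM in the libraries labelled knockout and from 75.5 to 96.3 CPM in controls. COL1A1 alone supplies most of this sum, averaging 74.3 CPM in the libraries labelled knockout and 73.9 CPM in controls. Of the 5 tested, 0 were called by edgeR, against 21.1% of all tested genes, and PECAM1 was at 0 reads. Leukocyte markers ran from 2.84 to 3.40 CPM in the libraries labelled knockout and from 5.06 to 5.75 CPM in controls, with CD4, the 1 tested marker, lower (log2 fold change -1.30) and CD3E at 0 reads. The part of these markers in the desmosome values was not tested.

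Genes were set against DSC3 over the 6 libraries by Euclidean distance of log2 CPM minus the mean of the 3 controls. A prior count of 2 was used, which shrinks the changes of genes with few reads. The closest were RP11-103J17.2 (0.569), C1orf106 (1.09), BEX4 (1.12), TRHDE (1.15) and TRHDE-AS1 (1.26). Their fitted log2 fold changes were -7.61, -3.29, -4.93, -4.21 and -3.99 in that order, against -3.91 for DSC3. Each was low in the libraries labelled knockout, which follows from choosing them by closeness to DSC3. RP11-103J17.2 had 0, 0 and 0 reads in the libraries labelled knockout and 28, 17 and 27 reads in controls. C1orf106 averaged 2.38 ± 0.740 CPM in the libraries labelled knockout and 23.6 ± 2.55 CPM in controls (SD, n = 3 each). BEX4, on the X chromosome, had 2 reads in the group labelled knockout and 70 in the control group. TRHDE had 6 reads and TRHDE-AS1 7 reads in the group labelled knockout, against 115 and 114 reads in the control group. These antisense partners overlap in position and the library kit does not mark strand. How far they share reads was not tested.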

How the data were processed

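Total RNA was sequenced with an Illumina TruSeq RNA kit, per the labels' protocols. The authors deposited a table of raw counts by gene symbol for each library; the submitters' processing notes name TopHat2 2.0.11, HTSeq and the builds hg19 and GRCh37, while the strand setting is not given in the sources used here. Summary lines, 31.7% to 32.4% of listed reads, stayed out of library sizes.

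From these deposited counts, edgeR 4.0.16 (R 4.3.3) fitted a quasi-likelihood model with TMM scaling and filterByExpr (minimum count 10) over all 16369 genes kept, with Benjamini-Hochberg adjustment and a threshold of 0.05. CPM use TMM-scaled sizes. The scripts were tested on simulated data. RPKM used GENCODE 29 exon or coding lengths on GRCh38, another build than the counts. GENCODE places DSG2-AS1 opposite 171 exonic bases of DSG2 and PKP4-AS1 opposite 418 of PKP4, so reads there are uncertain. Pairs of replicates of the same group differed by a chi-square per degree of freedom of 2.2 to 19.8, so none was a duplicate. Control replicate 2 gave 19.8 against either other control, while the remaining same-group pairs gave at most 3.98. Libraries labelled knockout gave 15.9 to 20.7 against control replicates 1 and 3, and 38.0 to 47.0 against control replicate 2.

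Alternatives were RLE, upper quartile and library-size scaling, DESeq2 1.42.0, limma-voom (limma 3.58.1), other count filters, a threshold of 0.01, each library left out, and the replicate number as a block. The members and lists were chosen with earlier results of these data known. The genes named from each list were up to 3 higher and 3 lower with the largest change, plus a few fixed relatives of the members; 1 list gene, kept in the counts, is not reported here by name or in a figure; 5 nectin and afadin symbols were matched through RefSeq synonyms. Amino acid sequences were not used here.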

Additional observations from a re-analysis of the deposited data

How the results depend on the processing

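DSC3, DSP and JUP kept their direction under every alternative run, and the members' calls stayed at 2 higher and 1 lower except with libraries scaled by size alone. That scaling left 1 member higher, turned DSG2 to -0.038 and called 986 of all tested genes higher, against 1593 with TMM. An adjusted p under 0.01 called 618 genes higher and 869 lower, and 13 other junction genes higher against 21. Leaving out 1 library gave between 756 and 2261 genes higher and between 1025 and 2361 lower (1861 with all 6), and between 13 and 24 other junction genes higher and between 9 and 17 lower (11 with all 6); the 13 came without knockout replicate 1, and the 24 and 17 without control replicate 2. The cause of these differences was not tested. The DSC3 share of DSC2 and DSC3 averaged 4.30% in the libraries labelled knockout and 39.2% in controls per base of exon, 2.48% and 26.7% by reads, and 2.50% and 26.9% per coding base, a scale chosen after seeing the data. Same-numbered libraries correlated at 0.049, 0.145 and 0.093 in their deviations, so the numbers were not taken to pair them, although each library correlated best with its own number; with the replicate block 1623 genes were higher and 1840 lower, and 2 and 1 members. Depth limits DSG3, PKP1, DSC1, DSG1 and DSG4, whose few reads allow no comparison.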
